A study of Homo sapiens with 6 samples.

Results

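The HINT genes HINT1, HINT2 and HINT3 were examined in long-read cDNA libraries of Calu-6 cells, an established human lung carcinoma line. The 3 members were chosen by gene name, with the values of the siRNA comparison already in view, and are 3 of the 10072 genes and 10 of the 21472 transcript models in the count table. Their differences between groups are therefore given as a description, and no test of them is read as a result. The cells had been transfected for 48 h at 10 nM with a non-silencing siRNA (siControl, 3 libraries) or with an siRNA against the junction of TERT exons 1 and 5 (siDelta2-4, 3 libraries), which is made only when exons 2 to 4 are skipped. The labels called the cells WT, whereas the names of all count columns used here carried the word Empty. The study's methods describe siRNA-treated Calu-6 lines that stably carried either an empty Flag-V5 vector or a Flag-V5-Delta 2-4 construct. The study used the cells with that construct for a rescue of the knockdown, and no column used here was named for them. The study calls the libraries of a group biological replicates, while the labels did not say whether they came from separate cultures, so the errors below measure the spread between libraries.

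HINT proteins are small enzymes of the histidine triad family, named for 3 histidines, each separated by another residue, that lie in the active site. HINT1 works as a dimer that cuts the bond between AMP and an amine, and one of its natural substrates is the lysyl-AMP that lysyl-tRNA synthetase makes. HINT2 is the mitochondrial member and HINT3 is a more distant relative found in the nucleus and cytoplasm. Loss of HINT1 causes an inherited motor neuropathy in humans, and the protein has also been studied as a tumour suppressor.

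The coding sequence around the triad is shown because it is what the 3 genes share, and because the HINT1 models described below differ in whether they can encode it. The sequences are from Gencode 44 transcripts on GRCh38, read 5′ to 3′, and capitals mark the 3 histidine codons.
HINT1 (exon 3 of 3 in HINT1-201, minus strand, chr5:131159471-131159509): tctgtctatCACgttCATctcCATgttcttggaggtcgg
HINT2 (exon 5 of 5 in HINT2-201, minus strand, chr9:35813078-35813116): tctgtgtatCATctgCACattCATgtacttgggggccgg
HINT3 (exon 4 of 5 in HINT3-201, plus strand, chr6:125974875-125974913): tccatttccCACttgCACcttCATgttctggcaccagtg
The triad began at codon 110 of 126 in HINT1, codon 147 of 163 in HINT2 and codon 143 of 182 in HINT3. Over these 39 bases, HINT1 and HINT2 were identical at 29 positions, HINT1 and HINT3 at 23, and HINT2 and HINT3 at 22.

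The libraries held 1037468 to 1106413 counts in siControl and 1070009 to 1309241 in siDelta2-4, a number that limits the precision for weakly expressed genes. Within a group the libraries are called deepest, middle and shallowest by total count, and values per library are given in that order below. The shallowest siControl library stood apart: over the tested genes, its root mean square distance in log2 CPM (counts per 1000000 of the scaled library total) was 0.468 to its own group and 0.439 to siDelta2-4, whereas each of the other 5 libraries was nearer to its own group. Every transcript model in the table had a count in siDelta2-4, so genes lost there could not be seen, and TERT itself had 0 rows. The epithelial keratins KRT8 and KRT18 were counted in every library (114 to 231 counts), KRT19 had 1 count and EPCAM had 1 to 3 per library, and CDH1 had no row. The mesenchymal marker VIM had 130 to 206 counts per library, with a log2 fold change estimated at 0.27 ± 0.12 (SE, adjusted p by edgeR = 0.149). Its CPM did not overlap between groups, as was so for 26% of all tested genes. CDH2 had no row. Of 9 markers of leukocytes, endothelium and fibroblasts, only CD74 and LYZ had rows, with at most 3 counts in a library.

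HINT1 was lower in every siDelta2-4 library than in any siControl library. HINT1 (ENSG00000169567.13, minus strand of chromosome 5, 131155383 to 131224468) was counted 1284, 1304 and 1153 times in siControl (deepest, middle and shallowest library). In siDelta2-4 the counts were 962, 901 and 816. After scaling of the libraries by TMM, the levels were 1252, 1250 and 1104 CPM in siControl and 738, 732 and 764 CPM in siDelta2-4. The groups did not overlap, and the siDelta2-4 libraries lay close together, while the shallowest siControl library was the lowest of its group. The mean went from 1202 ± 84.7 to 745 ± 17.0 CPM (mean ± SD, n = 3), a log2 fold change of -0.69 ± 0.08 (SE from edgeR), or 0.619 of the siControl level. As a share of the library count, HINT1 took 0.116% in siControl and 0.0753% in siDelta2-4. With the shallowest siControl library left out, the log2 fold change was -0.77. In bulk RNA, fewer cells that express a gene and less RNA per cell cannot be told apart.

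HINT2 had far fewer counts, and its groups overlapped. HINT2 (ENSG00000137133.11, minus strand of chromosome 9, 35812960 to 35815354) was counted 20, 22 and 20 times in siControl, against 19, 23 and 25 times in siDelta2-4. Its levels were 19.5, 21.1 and 19.2 CPM in siControl and 14.6, 18.7 and 23.4 CPM in siDelta2-4, so both the highest and the lowest library were siDelta2-4 libraries. The log2 fold change was -0.09 ± 0.27 (SE), and at this depth a change of the size seen in HINT1 spans under 3 SE. HINT3 (ENSG00000111911.7, plus strand of chromosome 6, 125956770 to 125980244) was at the limit of detection, with 2 counts in all, 1 in the shallowest siControl library and 1 in the deepest siDelta2-4 library. It did not pass the filter on low counts, and no fold change is given for it.

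Of the 2 members that passed the filter, 1 (HINT1) was called at an adjusted p under 0.1 and was also the member whose groups did not overlap. Among all 3888 tested genes, 13% were called (7% higher and 5.97% lower in siDelta2-4), and CPM did not overlap between groups for 26%. HINT1 was picked with this contrast known, so nothing is read from its call.

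**Figure D1:**
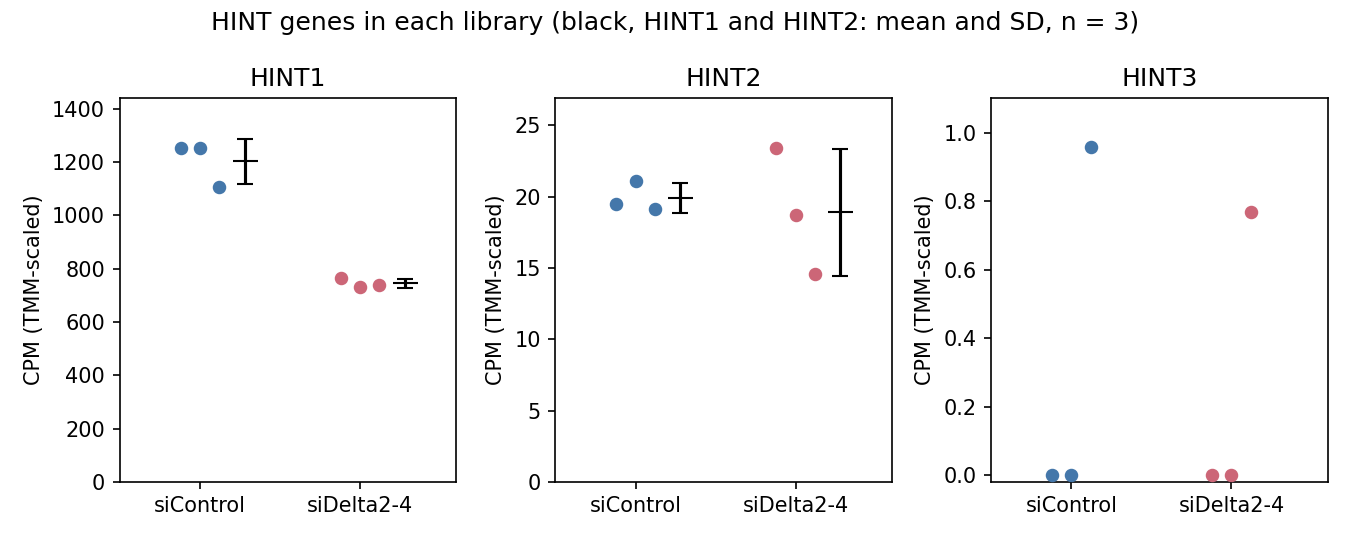
Level of HINT1, HINT2 and HINT3 in each library, in TMM-scaled CPM on an axis that starts at 0 for HINT1 and HINT2 and just under 0 for HINT3. Points are libraries, placed in the order of the count columns, and black bars are the mean and SD of 3 libraries. HINT1 lay between 732 and 764 CPM in siDelta2-4, under the lowest siControl library at 1104 CPM, whereas the HINT2 libraries overlapped and HINT3 had a count in 2 libraries.

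The order of the members was the same in all 6 libraries. On the scale of CPM per kilobase of the mean counted model, HINT1 had a level of 1353 ± 95.4 in siControl and 838 ± 19.1 in siDelta2-4, and HINT2 30.4 ± 1.58 and 28.9 ± 6.75 (mean ± SD, n = 3). HINT3, with 1 count in a single library of each group, was below both. Per kilobase, HINT1 exceeded HINT2 by 47.3, 43.7 and 42.5 times in the siControl libraries. The same ratio was 37.3, 28.9 and 24.0 in siDelta2-4, without overlap with siControl. HINT1 was picked with this contrast known, so the lower ratio restates its fall and nothing more is read from it. HINT2 entered this ratio with 19 to 25 counts per library, which set its precision.

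The counts of HINT1 lay almost wholly on its standard spliced form. HINT1 had 7 models in the table, of which 5 were known (they matched a Gencode transcript) and 2 had been added by TALON, the program that assigned the reads. HINT1-201, the 852-base protein-coding transcript of 3 exons, held 6033 of the 6420 HINT1 counts, or 94.0%. Of the models counted, it is the only Gencode transcript whose coding part reaches the histidine triad. An unannotated combination of known splice sites (TALONT000742879, 3 exons, 556 bases; TALON class NIC) held 3.02%. HINT1-213 (3080 bases), annotated as a target of nonsense-mediated decay, held 1.99%. A model with an unannotated splice site (TALONT000742888, 643 bases; class NNC) held 0.810%. The other 3 models, HINT1-204, HINT1-206 and HINT1-212, had 6, 6 and 1 counts in all. HINT1 had 0 models of the class ISM (incomplete splice match, which truncated reads can form), a class that held 31.6% of the counts of all annotated genes.

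**Figure D2:**
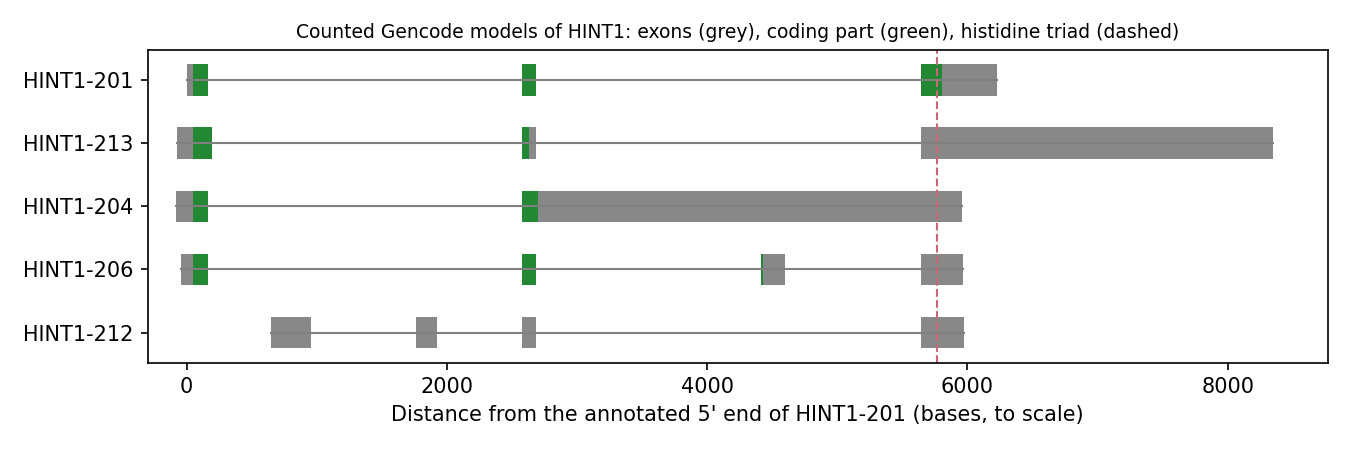
The 5 Gencode models of HINT1 that had counts, drawn to scale against the distance in bases from the annotated 5′ end of HINT1-201, with exons in grey, coding parts in green and the histidine triad as a dashed line. The green part crosses the triad in HINT1-201 alone, and HINT1-213 has a longer first exon and a last exon of 2701 bases against 585.

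HINT1-213 shares all 852 bases of HINT1-201 but uses a splice donor 35 bases further into the first intron and a later 3′ end. The join of exon 1 to exon 2 is shown for both models, since it is the splicing difference that separates them. Each has 15 bases of HINT1-201 exon 1 and 15 of exon 2 in lower case, and capitals mark the added bases (Gencode 44 on GRCh38, minus strand of chromosome 5, exon 2 from 131162676 downwards).
HINT1-201 (exon 1 ends at 131165095): tttgaggatgaccggtgccttgctttccat
HINT1-213 (exon 1 ends at 131165060): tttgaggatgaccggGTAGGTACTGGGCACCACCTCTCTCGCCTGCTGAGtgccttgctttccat
The added bases move the reading frame, and the annotated coding part of HINT1-213 stops in exon 2, after 195 bases, before the exon that holds the triad.

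The main model and HINT1-213 did not move together. HINT1-201 was counted 1198, 1239 and 1097 times in siControl, against 898, 837 and 764 times in siDelta2-4. Its level was 1136 ± 74.2 CPM in siControl and 695 ± 18.3 in siDelta2-4 (mean ± SD, n = 3), with no overlap and a log2 fold change of -0.68 ± 0.07 (SE from the edgeR fit of all models). HINT1-213 was counted 20, 19 and 16 times in siControl, against 26, 26 and 21 times in siDelta2-4. Its level was 19.5, 18.2 and 15.3 CPM in siControl and 19.7 to 21.1 CPM in siDelta2-4, without overlap, though the gap between the groups was small. Its log2 fold change was 0.22 ± 0.26 (SE), so the difference in scaled level was within its error. For every 1000 counts of HINT1-201, HINT1-213 had 16.7, 15.3 and 14.6 counts in the siControl libraries, against 29.0, 31.1 and 27.5 in siDelta2-4. This ratio does not depend on how the libraries were scaled, and its groups did not overlap. Its divisor is the main model of a gene picked with its fall known. A model that did not change would therefore also rise in this ratio and as a share of HINT1. As a share of HINT1, HINT1-213 made up 1.47% ± 0.0855 in siControl and 2.72% ± 0.157 in siDelta2-4 (mean ± SD, n = 3), on 16 to 26 counts per library.

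The shorter NIC model followed the main one. It was counted 48, 35 and 32 times in siControl, against 28, 28 and 23 times in siDelta2-4, with a log2 fold change of -0.72 ± 0.23 (SE). Per 1000 counts of HINT1-201 it had 28.2 to 40.1 counts in siControl and 30.1 to 33.5 in siDelta2-4, and these ranges overlapped. The NNC model was counted 17, 10 and 6 times in siControl, against 8, 6 and 5 times in siDelta2-4, with overlapping CPM, and did not pass the filter on low counts. Both added models had at least 5 counts in each of the 6 libraries. Over the whole table, all 6398 models that are not known had at least 5 counts in every siDelta2-4 library, and 5173 of them had as many in every siControl library.

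The shares of HINT1 on known models and on models shorter than 852 bases overlapped between groups. Known models held 96.1% ± 0.978 of its counts in siControl and 96.4% ± 0.189 in siDelta2-4 (mean ± SD, n = 3). Models shorter than 852 bases, the length of the model that holds the middle count, held 3.99% ± 0.931 and 3.80% ± 0.111 (mean ± SD, n = 3). The deepest siControl library had the largest short share, 5.06%, and leaving it out turned the sign of both differences between groups, which became -0.28 points for known and 0.35 points for short models, from 0.29 and -0.19. The lengths of known models are those of the annotation, not of the reads.

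**Figure D3:**
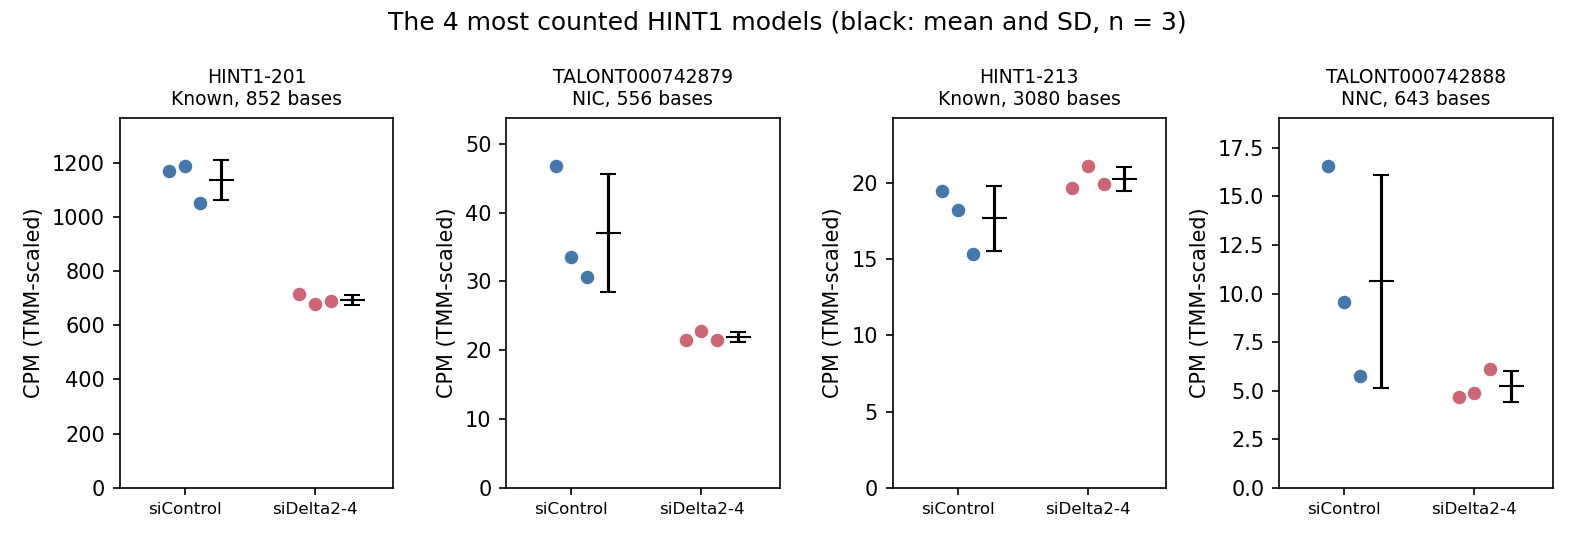
Level of the 4 most counted HINT1 models in each library, in TMM-scaled CPM on axes that start at 0 and differ between panels, with the mean and SD of 3 libraries in black. HINT1-201 and the 556-base NIC model were lower in all siDelta2-4 libraries than in any siControl library, the NNC model overlapped between groups, and HINT1-213 lay at 15.3 to 19.5 CPM in siControl and 19.7 to 21.1 CPM in siDelta2-4.

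HINT2 had 2 known models. The 649-base coding transcript HINT2-201 held 121 of the 129 HINT2 counts, and HINT2-202, which joins the last 2 coding exons without removing the intron between them and has no coding part in the annotation, held 8. HINT2-202 was counted 1, 1 and 0 times in siControl, against 2, 1 and 3 times in siDelta2-4, too few to compare. The single HINT3 model was HINT3-201, of 3325 bases. The processed pseudogenes HINT1P1, HINT1P2 and HINT2P1 had 0 rows in the table.

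The genes whose profile over the 6 libraries lay nearest to that of HINT1 were 3 TALON antisense genes, DANCR and MICOS13. Likeness was measured as the root mean square difference of log2 CPM, each gene centred on its own mean, over 6 libraries. The nearest, at 0.0496, was TALONG000087443, a gene that TALON placed antisense to an annotated gene. It was counted 1303, 1284 and 1155 times in siControl, against 1021, 855 and 800 times in siDelta2-4, which was 0.949 to 1.06 times the count of HINT1 in the same library. The main model of TALONG000087443 had 3 exons and 897 bases, and its total log2 fold change was -0.70 ± 0.08 (SE). Like the added HINT1 models, its other 3 models had 3 exons and were short, at 563, 607 and 576 bases against 556 and 643. The identifiers of its 4 models run from TALONT000742877 to TALONT000742898, and those of both added HINT1 models (TALONT000742879 and TALONT000742888) fall between them. The count table gives no position for TALON genes, so whether its reads come from the HINT1 locus was not tested. The libraries were not stated to keep the strand of the RNA, and the counts of HINT1 are uncertain to that extent.

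The other 4 were TALONG000086203 (0.0503), DANCR (0.0538), a long non-coding RNA that hosts a small nucleolar RNA, TALONG000073971 (0.0597), and MICOS13 (0.0613), a subunit of the complex that shapes the cristae of mitochondria. Their log2 fold changes were -0.67 ± 0.10, -0.76 ± 0.10, -0.75 ± 0.10 and -0.67 ± 0.08 (SE). They were picked for their likeness to HINT1 in these libraries, so these values are not independent of it.

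The neighbouring genes were compared by their counts. Of 25 annotated genes that overlap a HINT gene or start within 100 kb of it, 6 had rows. LYRM7, which encodes an assembly factor of respiratory complex III and lies on the plus strand (chromosome 5, 131170944 to 131205428) inside the annotated span of HINT1, was counted 31, 27 and 19 times in siControl, against 29, 26 and 33 times in siDelta2-4. Its log2 fold change was -0.01 ± 0.25 (SE, adjusted p by edgeR = 0.986). CDC42SE2, the other counted neighbour of HINT1, had at most 1 count in a library. Near HINT2, MSMP was counted 2, 4 and 4 times in siControl, against 13, 10 and 18 times in siDelta2-4. The study names MSMP among its top upregulated genes after the knockdown, by its own test and cut-offs. RGP1, which spans MSMP on the other strand, was counted 1, 1 and 3 times in siControl, against 10, 8 and 10 times in siDelta2-4, and CREB3 had 3 to 9 counts per library. TRMT11, next to HINT3, had 0 to 3. These 4 did not pass the filter on low counts.

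Genes that act with or beside the HINT enzymes were taken from 4 lists drawn up from general knowledge, which leave out the HINT genes: relatives of the histidine triad (HIT) superfamily, the lysyl-tRNA synthetase complex, described partners of HINT1, and enzymes of adenine nucleotides. Of 51 genes, 34 had rows and 21 passed the filter on low counts. In edgeR 0 of the 21 were called, against 13% of all tested genes, and 2 had an unadjusted p under 0.05. DESeq2 called 0 as well, but it gave an adjusted p to only 1852 genes, and a list gene without one could not be called. The log2 fold change was above 0 for 16 of the 21 and below 0 for 5, and over all tested genes it was above 0 for 2094 of 3888.

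Of the 6 HIT superfamily relatives, DCPS, the scavenger enzyme that breaks down the mRNA cap, was the only gene tested. It was counted 18, 21 and 26 times in siControl, against 32, 35 and 30 times in siDelta2-4, with overlapping CPM and a log2 fold change estimated at 0.37 ± 0.24 (SE, adjusted p by edgeR = 0.380). GALT, of galactose metabolism, had 1 to 7 counts per library, APTX, which removes AMP from stalled DNA ends, had 5 in all, and CWF19L1 had 4. FHIT and CWF19L2 had no row.

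The lysyl-tRNA synthetase complex holds the enzyme that makes the lysyl-AMP substrate of HINT1. Of 11 genes, 4 were tested, 0 were called, and the median log2 fold change was 0.33 against 0.03 over all tested genes. KARS1, the synthetase itself, had 7 to 13 counts per library in siControl and 11 to 17 in siDelta2-4, with a log2 fold change estimated at 0.40 ± 0.35 (SE, adjusted p by edgeR = 0.527). The scaffold proteins AIMP1 and AIMP2 had log2 fold changes of 0.40 ± 0.25 (edgeR adjusted p = 0.348) and 0.26 ± 0.18 (adjusted p = 0.388). EEF1E1, also a scaffold of the complex, went from 107 ± 10.6 to 119 ± 12.4 CPM (mean ± SD, n = 3), with a log2 fold change estimated at 0.15 ± 0.13 (SE, adjusted p by edgeR = 0.528). Only for AIMP1, among these 4, were the groups apart in CPM, as they were for 26% of all tested genes.

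Of 14 described partners of HINT1, 5 were tested and 0 were called, with a median log2 fold change of 0.23. CDK7, CCNH and MNAT1 form the kinase that phosphorylates RNA polymerase II and cyclin-dependent kinases. MNAT1 was counted 14, 20 and 33 times in siControl, against 47, 35 and 37 times in siDelta2-4, with a log2 fold change estimated at 0.62 ± 0.26 (SE, adjusted p by edgeR = 0.138). Its highest siControl value was in the shallowest library, and without that library it was called (0.98, edgeR adjusted p = 0.00704). In that fit 1041 of 4098 tested genes were called, so nothing is read from this call. CCNH had a log2 fold change of 0.16 ± 0.20 (edgeR adjusted p = 0.685), and CDK7 one of 0.53 ± 0.44 (adjusted p = 0.498). The helicases RUVBL1 and RUVBL2, which also bind beta-catenin, had log2 fold changes of 0.00 ± 0.25 (edgeR adjusted p = 0.994) and 0.23 ± 0.34 (adjusted p = 0.734). MITF and USF2, transcription factors described with HINT1 in mast cells, and PRKCA had no row.

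Of 20 enzymes of adenine nucleotides, 11 were tested and 0 were called, with a median log2 fold change of 0.03. AK6, an adenylate kinase of the nucleus, went from 14.5 ± 2.65 to 23.0 ± 4.92 CPM (mean ± SD, n = 3), with a log2 fold change estimated at 0.68 ± 0.28 (SE, adjusted p by edgeR = 0.136). Its CPM did not overlap between groups, as was so for 26% of all tested genes. With at least 10 counts required in every library AK6 was called (0.69, edgeR adjusted p = 0.0875), as were 493 of 3144 tested genes. NUDT1, which clears oxidised purine nucleotides, had a log2 fold change of -0.01 ± 0.15 (edgeR adjusted p = 0.983). The salvage enzyme APRT had a log2 fold change of -0.08 ± 0.13 (edgeR adjusted p = 0.756). NME1 and NME2, the nucleoside diphosphate kinases, were the most counted genes of the list, at 976 ± 104 and 1709 ± 42.3 CPM in siControl (mean ± SD, n = 3), with log2 fold changes of 0.03 ± 0.09 and -0.01 ± 0.08 (SE, adjusted p by edgeR = 0.878 and 0.972). They are close copies of each other at 1 locus, so their reads could be split between them. NUDT2, which breaks down the Ap4A that lysyl-tRNA synthetase also makes, had 3 to 8 counts per library and was not tested.

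**Figure D4:**
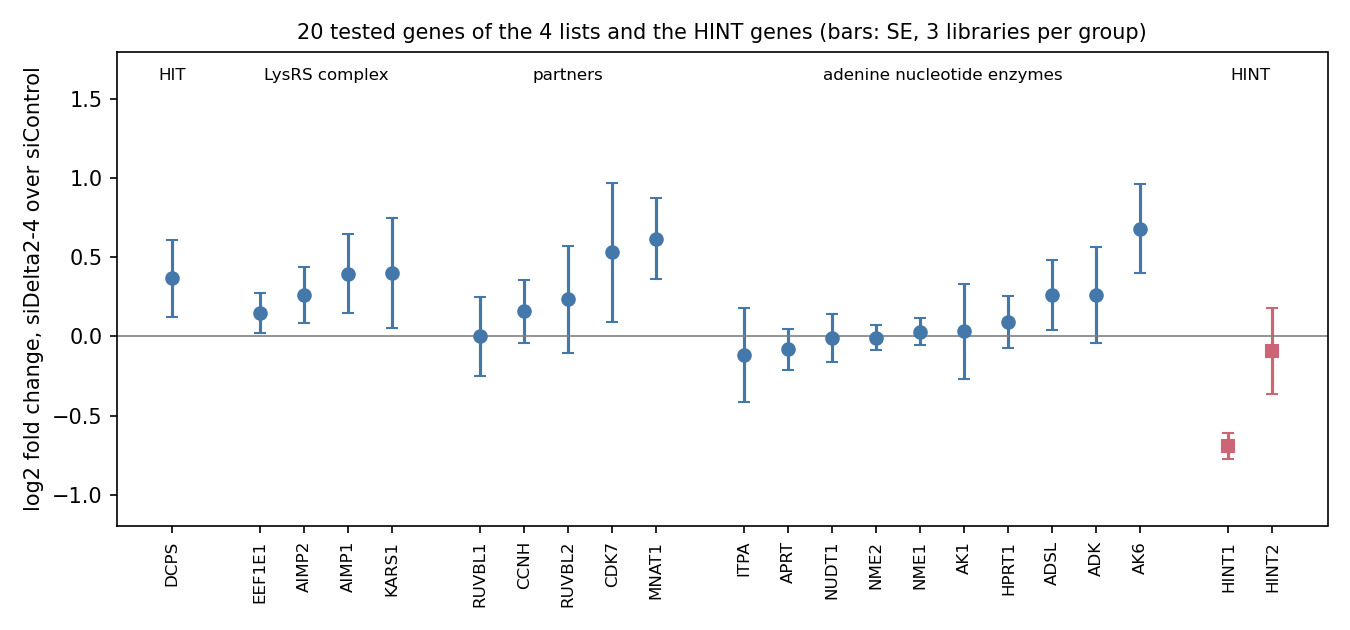
Log2 fold change, siDelta2-4 over siControl, of 20 of the 21 tested genes of the 4 lists (blue circles, sorted within each list) and of HINT1 and HINT2 (red squares), with SE bars from the edgeR fit of 3 libraries per group. HINT1, at -0.69, lay below each of the 20 list genes drawn, whose values ran from -0.12 (ITPA, which removes deaminated purine nucleotides) to 0.68 (AK6). HINT1 was picked with this contrast known, and only 2.03% of all tested genes lay at or below its value, so nothing is read from its place.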

How the data were processed

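Per the labels and the study's methods, the authors sequenced PCR-cDNA libraries on a nanopore flow cell, aligned reads to GRCh38.p14 with minimap2 2.14 and SAMtools 1.13, and assigned them with TALON to Gencode 44 models. The authors kept added models with at least 5 reads in 3 samples. The deposited values are raw counts per transcript model, with the model length in bases, and were matched to groups by the siRNA in the column names.

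Counts were summed per gene. All 10072 genes entered edgeR 4.0.16 (R 4.3.3): filterByExpr, TMM, a quasi-likelihood fit of the 2 groups, two-sided tests and Benjamini-Hochberg adjustment, called at an adjusted p under 0.1. Models were fitted in the same way. CPM used TMM-scaled totals, and log2 CPM a prior count of 2. SEs were obtained from the fold change and the F statistic (log2 value over root F). Alternatives were DESeq2 1.42.0, its size factors, library totals, no filter, at least 10 counts in every library, known models, a loess trend on length removed (span 0.4), each library left out, and a block on the column number. The HINT shares were also taken over other model filters.

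The members and lists were chosen with earlier results of these data known. Genes named are the members, their pseudogenes, counted neighbours within 100 kb, the 5 nearest profiles to HINT1, and, per list, called genes and up to 4 by CPM. CDK7, AK6, ITPA, NUDT2 and the list genes with few counts fall outside this rule and were named after their values were seen. The values of 1 tested list gene, which the list counts include, are not reported here. No sequences of added models and no protein table were used here.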

Additional observations from a re-analysis of the deposited data

How the results depend on the processing

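The log2 fold change of HINT1 was below 0 under all 14 alternatives, from -0.77 to -0.62, and that of HINT2 ran from -0.27 to 0.07, within the spread between libraries. With each library left out in turn, HINT1 ran from -0.77 (without the shallowest siControl library) to -0.67. HINT3 could not be fitted after the filter. The number of called genes was 504 of 3888 tested. It was 254 of the 1852 genes with an adjusted p in the DESeq2 Wald test. With known models alone it was 252 of 1854, so fewer genes were tested in both. With the column number as a replicate block it was 299 of 3888. With a library left out it ran from 194 of 3999, without the middle siDelta2-4 library, to 1041 of 4098, without the shallowest siControl library. It was also 298 of 4099 and 228 of 4127 without the deepest and middle siControl libraries. Without the shallowest and deepest siDelta2-4 libraries it was 308 of 4084 and 284 of 4063. The cause of the range with a library left out was not tested. The main fit gave 272 higher and 232 lower calls. Library totals alone gave 361 higher and 152 lower, with HINT1 at -0.62. With the length trend removed there were 194 higher and 283 lower, with HINT1 at -0.68. Lower calls also outnumbered higher ones with DESeq2 size factors (249 higher, 265 lower). The same was so in the DESeq2 Wald test (93 and 161) and with known models alone (120 and 132). Higher calls were the larger number under every other alternative. Same-numbered columns showed no shared deviation (r across genes of 0.039, -0.136 and -0.0843). Whether libraries with the same number were prepared together cannot be settled from these values. With the block HINT1 was at -0.69. Among the lists, the adenine nucleotide enzymes had 1 call when every library had to reach 10 counts, and the HINT1 partners 0 to 1 with a library left out. The HIT relatives and the lysyl-tRNA synthetase complex had 0 calls under every alternative, though in DESeq2 a gene without an adjusted p could not be called. No HINT1 model was shorter than 500 bases. Depth limits HINT2 and most list genes, with under 30 counts per library, and HINT3, with at most 1.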
